A study of Homo sapiens with 12 samples.

Results

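The genes described here make cholesterol and fatty acids or control that synthesis, and they were chosen by gene symbol from a fixed list of 35, all of which were among the 14828 genes of the expression table. They fall into 7 enzymes of the mevalonate steps, 11 enzymes that turn the mevalonate product into squalene and then cholesterol, 4 regulators, 3 genes of sterol transport and sensing, 5 enzymes that supply and assemble fatty acids and 5 enzymes that desaturate or elongate them. Expression was measured by RNA-seq in 22Rv1, a human prostate carcinoma cell line, which carried a puromycin-selected, doxycycline-inducible pTRIPZ lentiviral vector with a nontargeting hairpin (shNT) or 1 of 2 hairpins against CENPA (shCENPA1 and shCENPA2). CENPA is the histone H3 variant that marks centromeres. Knockdown was induced with doxycycline at 2 µg/ml for 72 h, and whether the shNT cells of these libraries received it too is not stated in the sources used here. Each shRNA was represented by 2 libraries, each run in lanes 7 and 8, and n below is the number of libraries. All results come from a single cell line.

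Cholesterol is built from acetyl-CoA through mevalonate, isoprenoid diphosphates, squalene and lanosterol, and fatty acids are built from acetyl-CoA through malonyl-CoA by fatty acid synthase and are then elongated and desaturated at the endoplasmic reticulum. The transcription factors SREBP2, encoded by SREBF2, and SREBP1, encoded by SREBF1, drive these genes, with SREBP2 acting mostly on the cholesterol enzymes and SREBP1c mostly on the fatty acid enzymes. Both are held in the endoplasmic reticulum by INSIG proteins and are carried to the Golgi for cleavage by SCAP when sterols are low. The liver X receptors (LXRs) sense oxidized sterols and raise sterol export genes as well as SREBF1 itself. In prostate cancer cells, androgens are known to raise lipid synthesis through SREBPs.

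The libraries held 79172294 to 133074655 reads on genes, and a gene of the list was counted with between 606 reads (CYP51A1) and 103092 reads (SCD) in a library. CENPA, the targeted gene, was at 2.46 and 2.18 log2 RPKM with shNT, at 0.50 and 0.58 with shCENPA1 and at -0.47 and -0.41 with shCENPA2. The 4 knockdown libraries lay below both shNT libraries, and CENPA fell by 1.78 (SE 0.16, adjusted p = 0.000287) and fell by 2.76 (SE 0.16, adjusted p = 1.13e-05) on the log2 scale. All 8 luminal prostate markers were in the table, and their summed RPKM was 718 to 752 with shNT, 677 to 718 with shCENPA1 and 684 to 703 with shCENPA2. The median log2 fold change of these markers was -0.28 and -0.65, with 2 lower with shCENPA1, where 4.45% of all genes tested were lower, and 5 lower and 1 higher with shCENPA2, where 10.5% were lower and 8.05% higher. Whether this shift plays a part in the results below was not tested. Of 12 markers of basal, stromal, endothelial and immune cells, 2, both stromal, were in the table, at a summed RPKM of 1.09 to 1.2, 1.5 to 1.6 and 1.3 to 1.63 in the 3 groups. The labels do not say that the libraries of a group came from separate cultures, so p-values measure the spread between these libraries, which may be technical, and an exact permutation test of 2 against 2 libraries cannot go below p = 0.33.

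The fatty acid desaturases SCD, FADS1 and FADS2, the elongase ELOVL6 and the regulators SREBF1 and INSIG1 were lower with both shRNAs and the malic enzyme ME1 was higher, whereas no enzyme of the cholesterol pathway passed with both. With shCENPA1, 7 of 35 genes were lower and 1 was higher at an adjusted p under 0.05 (limma, Benjamini-Hochberg over 14624 genes), where 4.45% of all genes tested were lower and 2.69% higher (7.14% in either direction). With shCENPA2, 8 of 35 were lower and 2 higher, beside 10.5% and 8.05% of all genes (18.5% in either direction). The median log2 fold change of the list was -0.05 and -0.03, beside 0.00 and 0.01 over all genes tested. The roles differed. Of the 5 desaturases and elongases 4 were lower with shCENPA1 and 5 with shCENPA2, with medians of -0.62 and -0.50. Of the 18 mevalonate and sterol enzymes 0 were lower with either shRNA and 1 was higher with shCENPA2, with medians of 0.03 and 0.06. For 18 genes these counts are near the shares of all genes tested, so they do not set these enzymes apart from other genes. Beyond a log2 fold change of 1, where 2.65% and 6.13% of all genes were called, the list held SCD with both shRNAs and ME1 with shCENPA2. Both comparisons share the shNT libraries, so that a chance deviation of these libraries enters both.

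**Figure D1:**
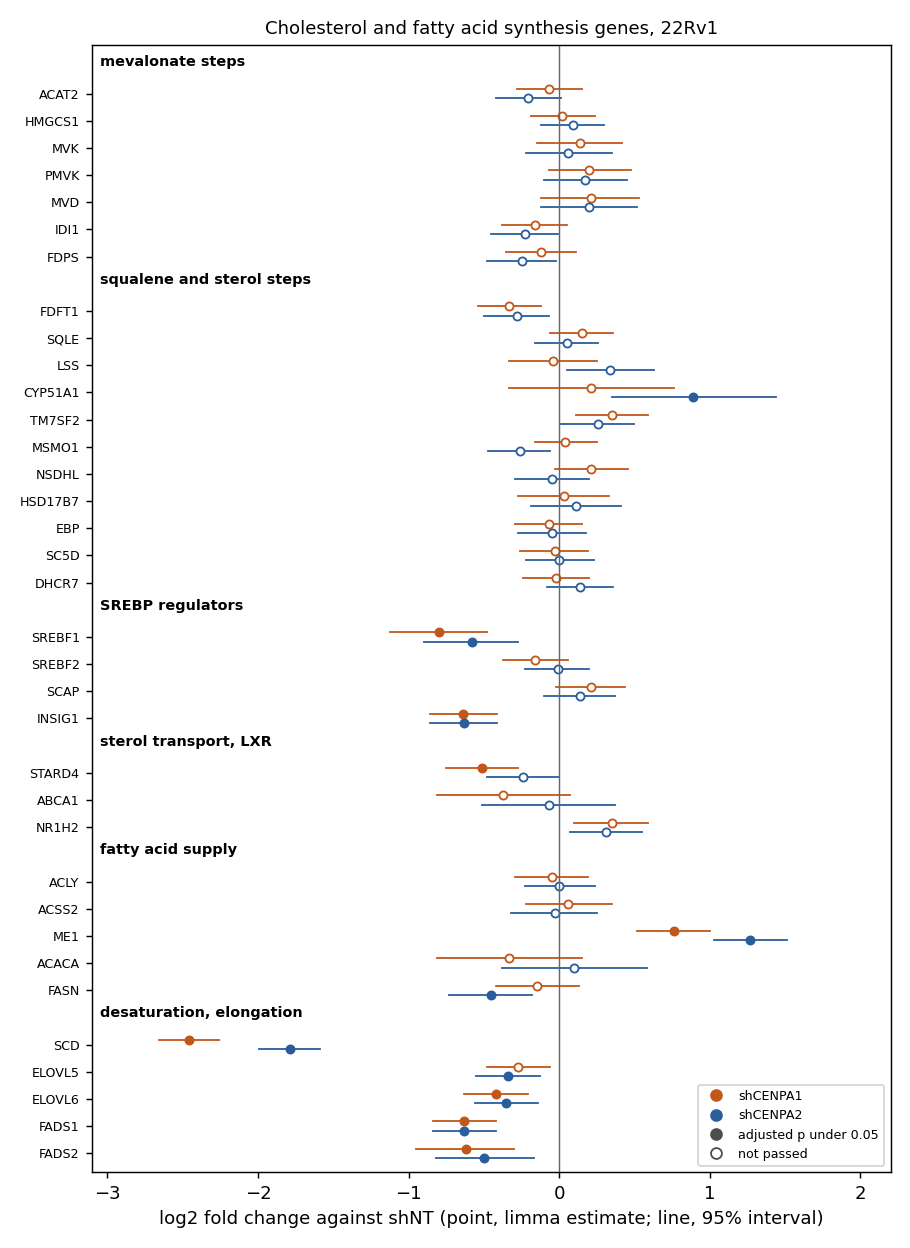
The log2 fold change of each of the 35 genes against shNT (horizontal axis) is drawn for shCENPA1 and shCENPA2 as the limma estimate with its 95% interval, grouped by role, with filled points for an adjusted p under 0.05. SCD stands far to the left at -2.46 and -1.79, ME1 lies to the right at 0.76 and 1.27, and the mevalonate enzymes scatter between -0.25 and 0.21.

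The desaturases and elongases shape the chain length and the double bonds of fatty acids. SCD (chr10:100347233-100364826, plus strand, hg38), stearoyl-CoA desaturase, which makes oleate and palmitoleate from saturated precursors, was the most abundant gene of the list per length with shNT. Its level was 7.47 and 7.46 log2 RPKM with shNT, 5.08 and 4.94 with shCENPA1 and 5.71 and 5.65 with shCENPA2. The 3 groups did not overlap, with shCENPA1 the lowest. Relative to shNT, SCD fell by 2.46 (SE 0.09, 95% interval -2.66 to -2.26, adjusted p = 2.72e-06) with shCENPA1 and fell by 1.79 (SE 0.09, -1.99 to -1.59, adjusted p = 6.3e-06) with shCENPA2 on the log2 scale. In RPKM it fell by 81.8% and fell by 71.1%. Counted from the lowest log2 fold change of all genes tested, SCD ranked 13 with shCENPA1 and 123 with shCENPA2. In these bulk libraries, fewer cells that express a gene and less RNA of it per cell cannot be told apart.

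FADS1, the delta-5 desaturase of polyunsaturated fatty acids, was at 3.61 and 3.63 log2 RPKM with shNT, 3.01 and 2.97 with shCENPA1, and 2.99 and 3.00 with shCENPA2. All knockdown libraries lay below both shNT libraries and close to each other, with a log2 fold change of -0.63 for each shRNA (SE 0.09, adjusted p = 0.0034 and 0.00158). FADS2, the delta-6 desaturase of the same pathway, was at 1.96 and 1.93 with shNT, 1.28 and 1.37 with shCENPA1, and 1.60 and 1.30 with shCENPA2. It was lower in all 4 knockdown libraries, by a log2 fold change of -0.62 (SE 0.14, adjusted p = 0.0318) and -0.50 (SE 0.14, adjusted p = 0.0405). The calls of FADS2 were lost without either shNT library (adjusted p of 0.182 to 0.214), without either library of shCENPA1 (0.0561 to 0.125) and, with shCENPA2, without its second library (log2 fold change -0.35, adjusted p = 0.128). FADS1 and FADS2 lie on opposite strands of chromosome 11 (FADS1 at chr11:61799627-61829318, minus, and FADS2 at chr11:61792980-61867354, plus) and share 490 exonic bases, 4.8% and 4.6% of each. The libraries were strand-specific, but the strand setting of the counting is not given in the sources used here, so reads from the shared bases may have been counted for either gene or for neither.

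ELOVL6, which elongates palmitate to stearate, was at 4.19 and 4.17 log2 RPKM with shNT, 3.79 and 3.72 with shCENPA1, and 3.75 and 3.91 with shCENPA2. It was lower in every knockdown library, by -0.42 (SE 0.09, adjusted p = 0.0264) and -0.35 (SE 0.09, adjusted p = 0.0301) on the log2 scale, but the shCENPA1 call did not survive the loss of any shNT or shCENPA1 library (adjusted p of 0.0697 to 0.213), and the shCENPA2 call was lost without either shNT library or the first shCENPA2 library (0.108 to 0.216). ELOVL5, which elongates polyunsaturated chains, was at 5.53 and 5.54 with shNT, 5.30 and 5.22 with shCENPA1, and 5.11 and 5.28 with shCENPA2. The groups did not overlap with shNT, and the log2 fold change passed with shCENPA2 (-0.34, SE 0.09, adjusted p = 0.0338) but not with shCENPA1 (-0.27, SE 0.09, interval -0.48 to -0.06, adjusted p = 0.123). Without either shNT library or the first shCENPA2 library the shCENPA2 call of ELOVL5 was lost (adjusted p of 0.135 to 0.218). The difference between the shRNAs was -0.06 for ELOVL5 (interval -0.27 to 0.14). The promoters of the 3 desaturases are shown because these genes fell together, from 250 bases before to 50 after a RefSeq transcription start on GRCh38.p14, 5′ to 3′ on the gene's strand. Capitals mark NF-Y boxes (CCAAT, read on either strand) and the looser form of the sterol response element described further on. The windows are chr10:100346983-100347282 (plus) for SCD, chr11:61816954-61817253 (minus) for FADS1 and chr11:61815953-61816252 (plus) for FADS2.
SCD: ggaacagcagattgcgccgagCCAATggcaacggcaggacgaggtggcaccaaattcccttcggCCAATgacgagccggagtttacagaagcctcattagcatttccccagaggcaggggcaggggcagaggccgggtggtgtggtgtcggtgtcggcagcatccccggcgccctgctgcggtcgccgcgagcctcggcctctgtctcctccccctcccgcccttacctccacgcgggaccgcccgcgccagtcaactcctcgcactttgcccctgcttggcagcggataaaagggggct
FADS1: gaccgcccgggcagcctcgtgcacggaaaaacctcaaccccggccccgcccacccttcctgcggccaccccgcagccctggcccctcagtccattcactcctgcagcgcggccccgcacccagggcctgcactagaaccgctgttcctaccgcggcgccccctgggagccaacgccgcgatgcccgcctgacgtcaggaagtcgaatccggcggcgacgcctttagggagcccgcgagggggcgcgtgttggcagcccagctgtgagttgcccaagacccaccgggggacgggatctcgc
FADS2: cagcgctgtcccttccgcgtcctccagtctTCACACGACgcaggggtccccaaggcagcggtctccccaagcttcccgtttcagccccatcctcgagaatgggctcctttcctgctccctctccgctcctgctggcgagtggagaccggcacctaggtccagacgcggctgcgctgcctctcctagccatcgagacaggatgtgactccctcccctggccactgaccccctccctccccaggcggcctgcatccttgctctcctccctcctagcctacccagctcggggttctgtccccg
The SCD window holds 2 NF-Y boxes, the FADS1 window none and the FADS2 window shown 1 match to the looser sterol response element. The second FADS2 window (chr11:61816154-61816453), not shown, holds 1 NF-Y box and no such match.

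Of the 4 regulators, SREBF1 and INSIG1 were lower with both shRNAs and SREBF2 and SCAP did not pass. SREBF1 (chr17:17810399-17837002, minus strand) was at 4.95 and 4.82 log2 RPKM with shNT, 4.08 and 4.09 with shCENPA1, and 4.54 and 4.06 with shCENPA2. Every knockdown library was below both shNT libraries, although the shCENPA2 libraries were spread more widely (SD 0.34, n = 2) than those of shNT (SD 0.09) and shCENPA1 (SD 0.01). On the log2 scale, SREBF1 fell by 0.80 (SE 0.14, adjusted p = 0.00878) with shCENPA1 and fell by 0.58 with shCENPA2 (SE 0.14, adjusted p = 0.0192). Without either shCENPA1 library its shCENPA1 call was lost (adjusted p = 0.0817 and 0.111), and without the second shCENPA2 library its log2 fold change was -0.35 (adjusted p = 0.0568). The shCENPA2 call was lost as well without the first shNT library (adjusted p = 0.0827) or either shCENPA1 library (0.0544 and 0.053). Of the exonic bases of SREBF1, 6.8% lie opposite RAI1 on the other strand.

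INSIG1 (chr7:155297776-155310235, plus strand), which retains SCAP in the endoplasmic reticulum and is itself a target of the SREBPs, was at 4.87 and 4.67 log2 RPKM with shNT, 4.06 and 4.21 with shCENPA1, and 4.14 and 4.14 with shCENPA2. The knockdown libraries were all below both shNT libraries, and the log2 fold changes were nearly equal, at -0.64 (SE 0.10, adjusted p = 0.00488) and -0.63 (SE 0.10, adjusted p = 0.00234). Without the first shNT library, the higher of the pair, the shCENPA1 value was -0.54 (adjusted p = 0.0614). SREBF2 was at 5.44 and 5.41 with shNT, 5.35 and 5.18 with shCENPA1, and 5.48 and 5.34 with shCENPA2. Its libraries overlapped between shNT and shCENPA2, and its log2 fold changes were -0.16 (interval -0.37 to 0.06, adjusted p = 0.378) and -0.01 (interval -0.23 to 0.20, adjusted p = 0.949). SCAP, the carrier of the SREBPs, had log2 fold changes of 0.21 (interval -0.02 to 0.44) and 0.14 (interval -0.10 to 0.37). The promoters of INSIG1 (chr7:155297628-155297927, plus), SREBF1 (chr17:17836937-17837236, minus) and SREBF2 (chr22:41832855-41833154, plus) are shown to set the 2 regulators that fell beside the SREBP gene that did not pass, with capitals as above.
INSIG1: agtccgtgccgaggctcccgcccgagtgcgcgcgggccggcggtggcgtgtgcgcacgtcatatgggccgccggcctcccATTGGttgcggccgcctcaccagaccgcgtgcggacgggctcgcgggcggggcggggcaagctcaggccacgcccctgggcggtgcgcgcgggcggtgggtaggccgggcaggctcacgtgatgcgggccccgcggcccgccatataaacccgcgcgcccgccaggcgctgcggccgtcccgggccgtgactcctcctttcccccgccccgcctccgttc
SREBF1: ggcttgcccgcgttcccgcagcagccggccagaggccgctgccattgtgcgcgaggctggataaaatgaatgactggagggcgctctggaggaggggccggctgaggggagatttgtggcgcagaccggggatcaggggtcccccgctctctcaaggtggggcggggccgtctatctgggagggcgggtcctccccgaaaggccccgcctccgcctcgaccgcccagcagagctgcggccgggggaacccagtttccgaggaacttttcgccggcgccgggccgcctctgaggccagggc
SREBF2: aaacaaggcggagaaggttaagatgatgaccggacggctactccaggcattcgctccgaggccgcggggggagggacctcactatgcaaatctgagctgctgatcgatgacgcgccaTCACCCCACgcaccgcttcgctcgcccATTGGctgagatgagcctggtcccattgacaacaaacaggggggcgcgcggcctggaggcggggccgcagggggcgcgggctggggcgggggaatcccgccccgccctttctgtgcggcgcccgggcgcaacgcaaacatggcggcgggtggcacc
The SREBF2 window holds the single match of the list to the sterol response element in its stricter form and 1 NF-Y box. The INSIG1 window holds 1 NF-Y box, and the SREBF1 window holds neither. That window, the only one found for SREBF1, lies at the upstream end of the gene, and any start further downstream was not searched.

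**Figure D2:**
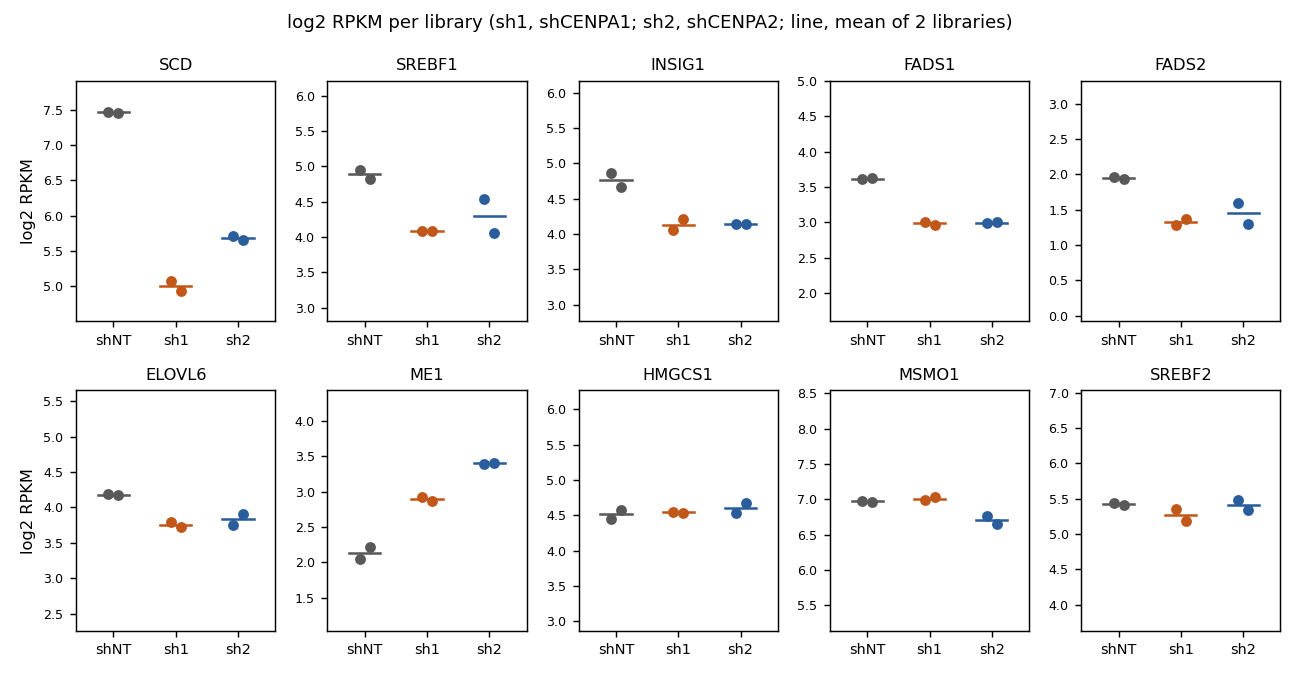
The log2 RPKM of each library (points) and the mean of the 2 libraries (lines) are plotted for shNT, shCENPA1 and shCENPA2 in 10 genes of the list, with the same height of the axis in every panel. SCD drops from 7.47 to 5.01 and 5.68 in the group means and ME1 climbs from 2.13 to 2.89 and 3.40, whereas HMGCS1 and SREBF2 stay within 0.16 of shNT.

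The enzymes of cholesterol synthesis itself had log2 fold changes from -0.33 to 0.35 with shCENPA1 and from -0.28 to 0.89 with shCENPA2. With shNT, the median level over the whole list was 4.18 log2 RPKM, beside 2.36 over all genes tested. For the 7 enzymes of the mevalonate steps (ACAT2, HMGCS1, MVK, PMVK, MVD, IDI1 and FDPS), which lead from acetyl-CoA to farnesyl diphosphate, the log2 fold changes ran from -0.16 to 0.21 with shCENPA1 and from -0.25 to 0.20 with shCENPA2. None passed in the limma fit, where 7.14% and 18.5% of all genes tested passed, or with voom on the recovered reads. At an unadjusted p under 0.05 there were 0 with shCENPA1 and 2 with shCENPA2, IDI1 and FDPS. HMGCS1, the cytosolic HMG-CoA synthase, was at 4.45 and 4.58 log2 RPKM with shNT, 4.55 and 4.53 with shCENPA1, and 4.53 and 4.68 with shCENPA2. Its groups overlapped, and its fold changes were 0.02 (interval -0.19 to 0.24) and 0.09 (interval -0.12 to 0.30) on the log2 scale. IDI1, the isopentenyl diphosphate isomerase, was lower in all knockdown libraries, at 5.34 and 5.33 with shNT, 5.07 and 5.28 with shCENPA1, and 5.07 and 5.15 with shCENPA2, with log2 fold changes of -0.16 and -0.23 that did not pass (adjusted p = 0.361 and 0.136). FDPS, farnesyl diphosphate synthase, had log2 fold changes of -0.12 (interval -0.35 to 0.11) and -0.25 (interval -0.48 to -0.02, adjusted p = 0.126). ACAT2, the cytosolic thiolase, was at -0.07 and -0.21, and the kinases MVK and PMVK and the decarboxylase MVD were between 0.06 and 0.21 with both shRNAs. Of ACAT2, 22.2% of the exonic bases lie opposite TCP1 and SOD2.

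Among the 11 enzymes from squalene to cholesterol, none passed with shCENPA1 and only CYP51A1 with shCENPA2, beside 7.14% and 18.5% of all genes tested. At an unadjusted p under 0.05, limma gave 1 lower (FDFT1) and 1 higher (TM7SF2) with shCENPA1 over the 18 enzymes of both stages, and 4 lower and 3 higher with shCENPA2, and voom called FDFT1 lower with each shRNA. FDFT1, squalene synthase, the entry to sterols, was at 7.22 and 7.22 log2 RPKM with shNT, 6.83 and 6.96 with shCENPA1, and 6.91 and 6.96 with shCENPA2. All 4 knockdown libraries were lower than shNT, by -0.33 (SE 0.09, interval -0.54 to -0.12) and -0.28 (SE 0.09, interval -0.50 to -0.07), with adjusted p = 0.0727 and 0.0659. MSMO1, the C4-methylsterol oxidase, was at 6.98 and 6.96 with shNT, 6.99 and 7.03 with shCENPA1, and 6.76 and 6.65 with shCENPA2. It was lower than shNT only in the shCENPA2 libraries, where the log2 fold change of -0.26 (interval -0.47 to -0.06) had an adjusted p = 0.0776. The difference between the shRNAs was -0.30 (adjusted p = 0.173).

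CYP51A1, lanosterol demethylase, was at 0.37 and 0.44 log2 RPKM with shNT, 1.02 and 0.22 with shCENPA1, and 1.36 and 1.25 with shCENPA2. The shCENPA2 libraries were above all others, while the shCENPA1 libraries lay on either side of shNT. It rose by 0.89 on the log2 scale with shCENPA2 (SE 0.24, adjusted p = 0.03) and was at 0.21 (SE 0.24, interval -0.33 to 0.76) with shCENPA1, and the difference between the shRNAs, 0.68, did not pass (interval 0.14 to 1.22, adjusted p = 0.256). The call was lost without any one of the shNT or shCENPA2 libraries (adjusted p of 0.062 to 0.109). CYP51A1 is uncertain as a measurement, since 68.2% of its exonic bases lie within other coding gene models on the same strand (2844 bases in 1 of them), and counting could have set aside reads shared by them. TM7SF2, a sterol reductase, was higher in every knockdown library, at 4.88 and 4.77 with shNT, 5.07 and 5.28 with shCENPA1, and 5.17 and 4.99 with shCENPA2, with log2 fold changes of 0.35 and 0.26 that did not pass (adjusted p = 0.0918 and 0.136). LSS, which closes the sterol rings, was at -0.04 with shCENPA1 and 0.34 with shCENPA2 (interval 0.05 to 0.63, adjusted p = 0.0979). The remaining enzymes, SQLE, NSDHL, HSD17B7, EBP, SC5D and DHCR7, lay between -0.07 and 0.21 with shCENPA1 and between -0.05 and 0.14 with shCENPA2. EBP shares 36.4% of its exonic bases with another coding gene model on its strand and may be uncertain for the same reason. The promoter of FDPS (chr1:155308616-155308915, plus) is shown as that of a cholesterol enzyme that did not pass, since it carries the looser sterol response element between NF-Y boxes.
FDPS: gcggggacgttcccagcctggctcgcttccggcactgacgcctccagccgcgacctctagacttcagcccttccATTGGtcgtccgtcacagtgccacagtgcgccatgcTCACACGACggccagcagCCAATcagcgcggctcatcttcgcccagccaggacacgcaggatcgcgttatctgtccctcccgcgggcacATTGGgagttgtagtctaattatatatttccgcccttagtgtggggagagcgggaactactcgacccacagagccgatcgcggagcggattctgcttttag
It holds 3 NF-Y boxes.

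Of the 5 genes that supply and assemble fatty acids, ME1 rose with both shRNAs and FASN fell with shCENPA2, and ACLY, ACSS2 and ACACA did not pass. ME1 (chr6:83210402-83431051, minus strand), the cytosolic malic enzyme, which yields NADPH, was at 2.05 and 2.21 log2 RPKM with shNT, 2.92 and 2.86 with shCENPA1, and 3.39 and 3.41 with shCENPA2. The 3 groups did not overlap, and ME1 was highest with shCENPA2. It rose by 0.76 (SE 0.11, interval 0.52 to 1.00, adjusted p = 0.00236) and by 1.27 (SE 0.11, interval 1.03 to 1.51, adjusted p = 5.81e-05) on the log2 scale, which is 69.5% and 141% more than shNT. It ranked 248 and 140 from the highest fold change of all genes tested.

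FASN, fatty acid synthase, was at 5.49 and 5.37 log2 RPKM with shNT, 5.38 and 5.19 with shCENPA1, and 5.14 and 4.81 with shCENPA2. Both shCENPA2 libraries were below shNT, and the shCENPA1 libraries overlapped it. FASN fell by 0.45 with shCENPA2 (SE 0.12, adjusted p = 0.0312), a call lost without any one library other than the first of shCENPA2 (adjusted p of 0.0516 to 0.175), and was at -0.15 (interval -0.42 to 0.13, adjusted p = 0.535) with shCENPA1. ACLY, which makes cytosolic acetyl-CoA from citrate, was at -0.05 (interval -0.29 to 0.19) and 0.00 (interval -0.23 to 0.24), and ACSS2, which makes it from acetate, was at 0.06 and -0.03 on the log2 scale. ACACA, acetyl-CoA carboxylase, which makes malonyl-CoA, had 1 low library, the second of shCENPA1, at 1.86 log2 RPKM where the other 5 were between 2.47 and 2.71. Its log2 fold changes, -0.33 (interval -0.81 to 0.15) and 0.10 (interval -0.38 to 0.58), leave room for a change of either sign.

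The 3 genes of sterol transport and sensing did not move one way. STARD4, a cytosolic sterol carrier, was at 3.43 and 3.46 log2 RPKM with shNT, 3.05 and 2.81 with shCENPA1, and 3.19 and 3.22 with shCENPA2. All knockdown libraries were below shNT, and STARD4 fell by 0.51 with shCENPA1 (SE 0.11, adjusted p = 0.0212) and was at -0.24 with shCENPA2 (interval -0.48 to 0.00, adjusted p = 0.162). The call with shCENPA1 was lost without either shNT library (adjusted p = 0.12 and 0.183) or without the second shCENPA1 library (0.116). ABCA1, the cholesterol exporter and a target of LXR, was the weakest gene of the list per length, with log2 fold changes of -0.37 (interval -0.81 to 0.07) and -0.07 (interval -0.51 to 0.37). NR1H2, which encodes LXR beta, was above both shNT libraries in all 4 knockdown libraries, at 4.43 and 4.31 with shNT, 4.66 and 4.77 with shCENPA1, and 4.81 and 4.55 with shCENPA2. Its log2 fold changes of 0.35 and 0.31 did not pass (adjusted p = 0.0943 and 0.0774), and 22.1% of its exonic bases lie opposite NAPSA.

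Over the whole list, the 4 knockdown libraries lay below both shNT libraries in 10 of 35 genes and above both in 3, where 20.5% and 20.3% of all genes tested did so. Passing with both shRNAs was seen in 7 genes (SREBF1, INSIG1, SCD, ELOVL6, FADS1 and FADS2 lower, and ME1 higher), where 4.13% of all genes were lower and 2.37% higher with both (6.52% in either direction, including a few that went opposite ways). A further 4 passed with 1 shRNA (STARD4 with shCENPA1, and CYP51A1, FASN and ELOVL5 with shCENPA2) and 24 passed with neither.

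The shRNAs were compared directly because shCENPA2 lowered CENPA further, by -0.98 (SE 0.16, adjusted p = 0.0209) on the log2 scale, a call lost without either shCENPA1 library or the second shCENPA2 library (-1.02 to -0.94, adjusted p of 0.0571 to 0.212), by voom, or with 1 added to RPKM (-0.50). Of the 35 genes, SCD alone differed between them at an adjusted p under 0.05, where 0.39% of all genes tested were higher with shCENPA2 and 1.03% lower (1.42% in either direction), and 0 of 35 differed by more than 1 on the log2 scale, where 0.732% of all genes did. SCD was higher with shCENPA2 than with shCENPA1 by 0.67 (SE 0.09, interval 0.47 to 0.87, adjusted p = 0.00809), so the shRNA with the lower CENPA level was the one with the higher SCD level. This call was lost without the second shCENPA1 library (0.60, adjusted p = 0.0967). ME1 differed by 0.51 (SE 0.11, interval 0.27 to 0.75, adjusted p = 0.0551). In the limma fit 0 genes were lower with shCENPA2 than with shCENPA1, with 3 at an unadjusted p under 0.05 (MSMO1, NSDHL and FASN) and 0 by voom. For the other genes that passed with both shRNAs the difference was small against its interval, at 0.22 for SREBF1 (interval -0.10 to 0.54), 0.01 for INSIG1 (-0.22 to 0.23), 0.00 for FADS1 (-0.21 to 0.21), 0.12 for FADS2 (-0.20 to 0.45) and 0.07 for ELOVL6 (-0.14 to 0.29). Differences inside these intervals were not detectable.

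The promoters of the list were searched, on both strands, for the sterol response element to which SREBPs bind, for the NF-Y and Sp1 boxes of the factors that act beside them, and for the E-box that SREBP1 can also bind. RefSeq windows were found for 31 of 35 genes, 41 windows in all, not including ACAT2, FDFT1, SQLE and FASN. The sterol response element, TCACNCCAC, was found in 1 window (2.44%), that of SREBF2, beside 1.13% of 35116 windows of all genes. With 1 more free letter, TCACNCNAC, it was found in 5 windows (12.2%), those of FDPS, HSD17B7, FADS2, ACSS2 and SREBF2, beside 2.55% of all, and every match of the stricter form is counted here too. The NF-Y box, CCAAT, was in 26 windows (63.4%) of 22 genes, beside 34.6% of all, the Sp1 box, GGGCGG, was in 36 (87.8%) of 29 genes, beside 45% of all, and the E-box, CACGTG, was in 7 (17.1%) of 6 genes, beside 7.26%. Of the genes that passed with both shRNAs, SCD and INSIG1 held an NF-Y box and FADS2 held one in the second of its windows. SREBF1, FADS1, ELOVL6 and ME1 held none in the windows searched. The comparison with the windows of all genes was not matched for base composition or expression level. Windows of the same gene can overlap, as for ACLY, so that a site may count in more than 1 window. These matches describe letters in the windows and not bound sites.

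Other genes of lipid metabolism were counted in further lists. Of 24 other sterol genes, 5 were lower and 1 higher with shCENPA1 (4.45% and 2.69% of all genes tested) and 7 lower and 2 higher with shCENPA2 (10.5% and 8.05% of all genes), with medians of -0.04 and -0.04. The higher count with shCENPA2 is near that share. TMEM97, a sterol-responsive membrane protein also known as the sigma-2 receptor, was at 3.26 and 3.21 log2 RPKM with shNT, 2.52 and 2.57 with shCENPA1, and 2.06 and 2.27 with shCENPA2. Every knockdown library was below shNT, and it fell by 0.69 and fell by 1.07 on the log2 scale (adjusted p = 0.00612 and 0.000229). RNF145, a ubiquitin ligase of the sterol response, rose by 0.55 (adjusted p = 0.00748) and by 0.85 (adjusted p = 0.000321). With shCENPA1, the calls of TMEM97 and RNF145 were lost without either shCENPA1 library (adjusted p of 0.0503 to 0.0676), that of TMEM97 also without the first shNT library (0.0578) and that of RNF145 without the second (0.102), whereas with shCENPA2 both kept their calls whichever library was left out.

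Of 8 other genes linked to LXR, 2 were lower and 1 higher with shCENPA1, beside 4.45% and 2.69% of all genes, and 1 was lower with shCENPA2, near the 10.5% of all genes, with medians of -0.03 and 0.03. SMPDL3A, a phosphodiesterase induced by LXR, was the single gene of these to pass with both shRNAs, where in RPKM it fell by 29% (adjusted p = 0.0275) and fell by 50.1% (adjusted p = 0.000298). Of 26 other fatty acid genes tested of 27, 3 were lower and 1 higher with shCENPA1, beside 4.45% and 2.69% of all genes, and 3 lower and 2 higher with shCENPA2, near the 10.5% and 8.05% of all genes, with medians of -0.00 and 0.03. The 4 that passed with both shRNAs were ACSL3, SCD5, ELOVL4 and ELOVL2. ACSL3, an acyl-CoA synthetase of lipid droplets, was at 3.95 and 4.01 log2 RPKM with shNT and between 3.14 and 3.22 in the knockdown libraries, and fell by 0.81 (adjusted p = 0.00091) and fell by 0.80 (adjusted p = 0.000415). SCD5, the second human stearoyl-CoA desaturase, went the opposite way to SCD, from 0.77 and 0.40 with shNT to 1.44 and 1.50 with shCENPA1 and 1.47 and 1.56 with shCENPA2. It rose by 0.88 (SE 0.16, adjusted p = 0.011) and by 0.92 (SE 0.16, adjusted p = 0.00386), on 480 to 1696 reads, and stayed at a far lower level per length than SCD. ELOVL4 and ELOVL2, elongases of very long and of polyunsaturated chains, were lower, at -0.66 and -0.44 and at -0.53 and -0.59. With shCENPA1, the ELOVL2 call (limma adjusted p = 0.0462) was lost under 11 of 20 alternatives. Among them were each lane alone, median centring, quantile normalization, the replicate block and limma without the trend. ACSL3 kept its calls whichever library was left out, as did SCD5 and SMPDL3A with shCENPA2. With shCENPA1, the call of SCD5 was lost without the second shNT library or either shCENPA1 library (adjusted p of 0.0658 to 0.133), and those of SMPDL3A and ELOVL2 were lost without any one shNT or shCENPA1 library (0.0616 to 0.379). The call of ELOVL4 with shCENPA1 was lost without the second shNT library (0.0647). With shCENPA2, those of ELOVL2 and ELOVL4 were lost without either shNT library (0.0628 to 0.198).

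**Figure D3:**
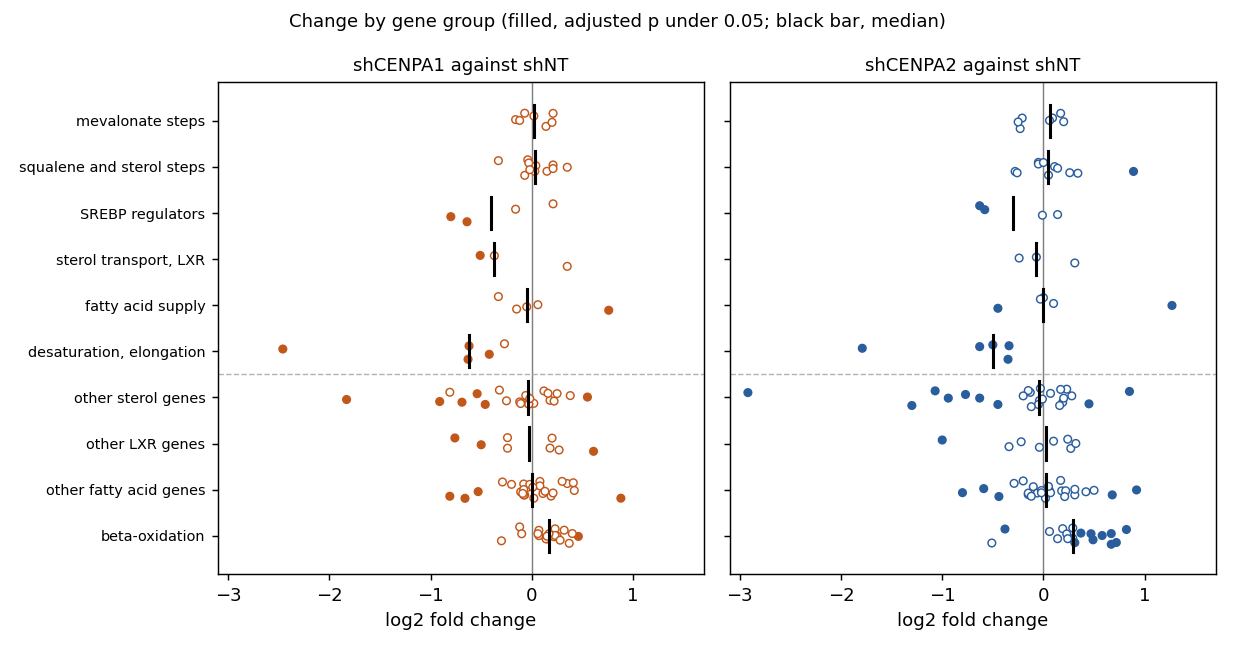
Each point is the log2 fold change (horizontal axis) of 1 gene against shNT, for shCENPA1 on the left and shCENPA2 on the right, by role within the list and, under the dashed line, for 4 further lists, with filled points for an adjusted p under 0.05 and black bars for the median. The desaturation and elongation row has its median at -0.62 and -0.50, and the beta-oxidation row has its median at 0.17 and 0.29, with 3 and 2 of its 19 genes below 0.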

How the data were processed

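RNA was measured in 12 runs of 22Rv1 cells, 6 libraries of 2 lanes each. Per the labels and the study's methods, strand-specific mRNA libraries were made, and TrimGalore, STAR, HTSeq and edgeR were used by the authors for trimming, alignment (to hg38), gene counting and normalization. The deposited values are log2 RPKM, the reads of a gene relative to its length and to the library size, on a log2 scale. Versions are not given in the sources used here.

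Lanes of a library differed little beyond sampling noise (chi-square per gene 1.235 to 1.311, where sampling alone gives about 1) and were averaged as 1 replicate, since libraries of a group differed far more (26.46 to 80.03). Whole reads were recovered from the steps of the deposited values for 14828 of 14828 genes (largest distance from a whole read 4.6e-08, tolerance 0.0001), which gave the depths. The deposited values include a prior of 0.25 reads at the mean library size, so fold changes of weak genes are drawn towards 0. The 14624 genes whose mean log2 RPKM reached -3 entered a limma fit (limma 3.58.1, R 4.3.3, lmFit, eBayes with a trend) of all 3 groups, with 2-sided p-values adjusted by Benjamini-Hochberg over all of them, and a gene passed at an adjusted p under 0.05. The test was run on simulated data with known changes, but the share it would miss at the sizes seen here is not given. Intervals are 95% and unadjusted.

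All 35 genes of the list are named, with CENPA and, from each further list, up to 4 genes with the largest mean of both log2 fold changes in size among those that passed with both shRNAs. Other genes of those lists are given as counts, and the values of 2 genes that this rule would name are not reported here. The genes and lists were chosen with earlier results of these data known. Gene positions and overlaps are from GENCODE 44, and promoters from RefSeq. Alternatives tried were lanes treated as replicates (also with their correlation estimated), each lane alone, a replicate block, other filters, 0.1 or 1 added to RPKM, median centring, quantile normalization, limma without the trend, fits of the compared groups alone, voom on the recovered reads, a threshold of 0.01, each library left out, and a looser sterol response element.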

Additional observations from a re-analysis of the deposited data

Results flagged for a closer look

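SCD differed between the shRNAs by 0.67 on the log2 scale (shCENPA2 minus shCENPA1, SE 0.09, limma adjusted p = 0.00809). It drew attention because the test of the difference itself passed, with both shCENPA2 libraries (5.71 and 5.65 log2 RPKM) above both shCENPA1 libraries (5.08 and 4.94), while CENPA was lower with shCENPA2 than with shCENPA1. Over all genes tested, 1.42% differed between the shRNAs at this threshold. Without the second shCENPA1 library the difference was 0.60 (adjusted p = 0.0967). Its cause was not tested.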

How the results depend on the processing

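No called gene reversed its direction, and SCD, FADS1 and ME1 kept their calls with each shRNA under all 20 alternatives. With shCENPA1, the 7 lower genes became 12 with lanes as replicates, 3 without the trend, 4 at an adjusted p under 0.01 and 3 to 7 when a library was left out. The 1 higher gene became 6 with lanes as replicates, 3 with an estimated correlation of lanes, 2 when the compared groups were fitted alone and 1 to 2 when a library was left out. The 14 genes of the further lists became 43, 23 with the estimated correlation, 8 without the trend, 6 at 0.01 and 3 to 14 without a library. With shCENPA2, the 8 lower genes became 14 with lanes as replicates, 3 without the trend, 3 at 0.01, and 3 to 6 without a library. The replicate block lowered them from 8 to 5, with ELOVL5, ELOVL6 and FADS2 lost, and with shCENPA1 it lowered the 7 to 5, with ELOVL6 and FADS2 lost. Whether libraries of the same number were paired is not given in the labels. Over the genes tested, their deviations from the group means correlated at -0.06413, -0.09521 and -0.145. These values show no shared shift across genes but cannot settle whether the libraries were paired. The 2 higher genes became 5 with lanes as replicates (5 with the correlation estimated), 1 in lane 7, 1 without the trend, 1 at 0.01 and 1 to 2 without a library. The 25 genes of the further lists became 52 with lanes, 15 at 0.01 and 14 to 25 without a library. For shCENPA2 against shCENPA1, the 0 lower genes became 4 with lanes and 1 with the correlation estimated and stayed at 0 without a library. The 1 higher gene became 6, 2 with the correlation, 0 without the trend, 2 by voom and 0 to 1 without a library. The further lists went from 0 to 28 with lanes, 6 with the correlation, 1 after median centring, 3 by voom and 0 to 2 without a library. Genes called beyond a log2 change of 1 stayed at 1, 2 and 0 whichever library was left out. The list's median with shCENPA1 was -0.06 to 0.00 without a library. With shCENPA2 it was -0.05 to -0.02 without a library, -0.02 in lane 7, in lane 8 and for genes with a mean of at least 0, -0.01 after median centring and quantile normalization, and -0.04 by voom. Between the shRNAs it was -0.02 to 0.05 without a library, 0.03 in lane 8 and 0.02 for genes with a mean of at least 0. Lanes treated as replicates count the same RNA again, and a stricter threshold or fewer libraries leave fewer calls by construction. The causes of the other shifts were not tested. Precision is limited by 2 libraries per shRNA, and the smallest change of the list that passed was -0.34 (ELOVL5 with shCENPA2).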

Other observations

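Genes of fatty acid breakdown, the opposite path to synthesis, were counted as well. Of 19 genes of mitochondrial and peroxisomal beta-oxidation tested, 9 were higher and 1 lower with shCENPA2, beside 8.05% and 10.5% of all genes, and 1 was higher with shCENPA1, beside 2.69%. The list had a median of 0.17 with shCENPA1 and 0.29 with shCENPA2 on the log2 scale, where the medians over all genes tested were 0.00 and 0.01. HADHB, the beta subunit of the mitochondrial trifunctional protein, was at 5.44 and 5.38 log2 RPKM with shNT, 5.78 and 5.96 with shCENPA1, and 6.02 and 6.14 with shCENPA2. It rose by 0.46 (SE 0.10, limma adjusted p = 0.021) and by 0.67 (SE 0.10, adjusted p = 0.00137) on the log2 scale and was the single gene of this list to pass with both shRNAs. Its call with shCENPA1 was lost without either shNT library or the second shCENPA1 library (adjusted p of 0.11 to 0.213). The 1 lower gene, HADH, a hydroxyacyl-CoA dehydrogenase named here after its values were seen, was at -0.30 (adjusted p = 0.121) and -0.38 (adjusted p = 0.0284). Between the shRNAs, 0 of the 77 genes of the 4 further lists passed in the limma fit, where 7 were lower and 12 higher with shCENPA2 at an unadjusted p under 0.05 and voom called 2 lower and 1 higher.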
